A study of Glycine max with 6 samples.

Results

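The 300 genes described here stood much higher in soybean hairy roots carrying a GmPHD6 RNAi construct than in control roots, while roots that overexpress GmPHD6 stayed close to control. They were chosen from the pooled values themselves. A gene was tested if its 3 columns carried an OK flag and an FPKM above 0. FPKM counts fragments per kilobase of transcript, scaled to sequencing depth. A tested gene was a member if log2(FPKM + 1) with RNAi exceeded control by at least 2 and overexpression lay within 1.5-fold of control, on FPKM + 1. This rule took 300 of 40400 tested genes, 0.743%, out of 56044 gene models.

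The roots came from Glycine max strain KF1, after injection of seedlings with Agrobacterium rhizogenes K599, a bacterium that transfers DNA into plant cells and makes transformed roots grow from the wound. The groups were RNAi against GmPHD6, GmPHD6 overexpression, and a K599 control labelled wild type, with 2 libraries each. Neither the promoters of the constructs, an empty vector in the control nor separate plants behind the 2 libraries of a group are stated in the labels. Seedlings of all groups were kept at 28 °C with daily light for 16 h and darkness for 8 h, and roots of 2 to 10 cm were taken. The authors gave 1 pooled FPKM with a lower and an upper bound per gene and group, and the column labelled G6 was read as overexpression. The pooled values carry no replicate error, and since they chose the members, no difference between groups was tested.

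GmPHD6 belongs to the Alfin-like proteins, plant nuclear proteins with a PHD finger, a domain that in many proteins binds histone tails. The alfalfa founder of the family, Alfin1, binds G-rich promoter elements. RNA interference cuts transcripts that match a double-stranded RNA made from the construct. Soybean keeps many genes in several copies, some at distant loci from old whole-genome duplications and some side by side from tandem duplication. The deposited table pairs no ID with a gene name, and the RefSeq gene table used (assembly Glycine_max_v4.0) shares 0 IDs with it. Functions of the members, whether the labelled tissue carries its markers, and the level of GmPHD6 itself were therefore not analysed here, and a member beyond the highest 2 is given by its deposited position in Wm82.a2.v1 coordinates.

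The members were genes of ordinary level in control roots that were abundant with RNAi. Their median level was 35.0 FPKM with RNAi (quartiles 13.5 and 95.2), 3.64 FPKM with overexpression (1.17 and 10.5) and 3.94 FPKM in control (1.28 and 11.1). Over all tested genes the medians were 4.30, 4.35 and 4.36 FPKM. The median member thus stood at percentile 90.3 of tested genes with RNAi, 45.9 with overexpression and 47.6 in control. With RNAi 74 members (24.7%) reached 100 FPKM, against 3 with overexpression (1.00%) and 4 in control (1.33%). Over all tested genes the shares were 3.11%, 2.51% and 2.33% in the same order. Fewer than 1 FPKM was read for 68 members with overexpression (22.7%) and 62 in control (20.7%), near the 23.5% and 23.0% of all tested genes. With RNAi there were 0 such members by construction, since the rule needs at least 3 FPKM there. In bulk tissue, more cells expressing a gene and more RNA per cell cannot be told apart.

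**Figure D1:**
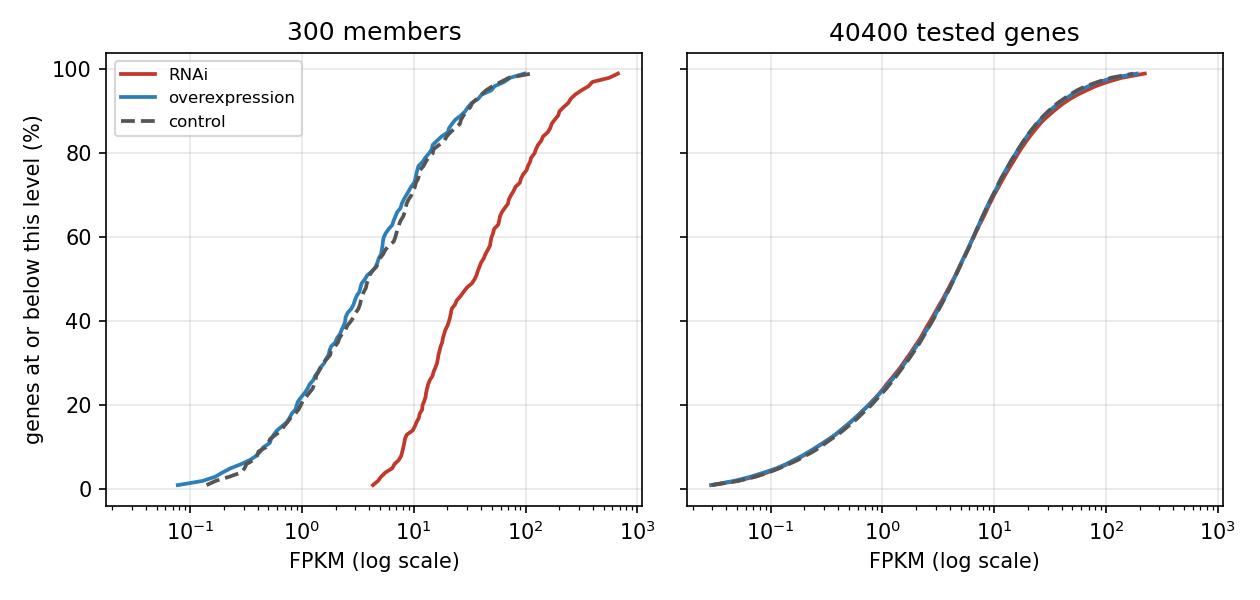
Share of genes (vertical axis, %) at or below each FPKM level (horizontal axis, log scale) for the 300 members on the left and the 40400 tested genes on the right, with a line per group. The RNAi line of the members lies to the right, with a median of 35.0 FPKM, while overexpression and control nearly coincide at medians of 3.64 and 3.94 FPKM.

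Summed over the members, 24988 FPKM were read with RNAi, 3320 with overexpression and 3436 in control. That is 3.31% of the RNAi column, 0.398% of the overexpression column and 0.508% of the control column. The members' sum was 7.27 times control with RNAi and 0.966 times control with overexpression. The 10 highest of the 300 members held 25.7% of the RNAi sum, more than an even share but well short of most of it.

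Between 2.00 and 5.79, the log2 differences of RNAi from control had their median at 2.52. It was under 2.5 for 146 members, at least 3 for 84, at least 4 for 16 and at least 5 for 6. These differences chose the members and are given as a description, since all tested genes had a median of 0.03 and 1.14% of them rose by at least 2. As plain ratios of FPKM, RNAi stood at 4.15 to 160 times control with a median of 7.99, because adding 1 FPKM shrinks the change of low genes. The ratio of 160 divides by a control value of 0.0746 FPKM with bounds of 0 to 0.284, so its size is poorly fixed.

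Glyma.13G186200 on chromosome 13 (29990951 to 29993554) had the largest log2 difference, 5.79. It stood at 141 FPKM with RNAi (bounds 136 to 146), 0.912 with overexpression (0.497 to 1.33) and 1.57 in control (1.07 to 2.06). Glyma.18G050600 on chromosome 18 (4361996 to 4364533) followed with a difference of 5.29. It read 123 FPKM with RNAi (119 to 128), 1.45 with overexpression (0.992 to 1.91) and 2.18 in control (1.66 to 2.70). Outside the RNAi roots both genes stood between 0.912 and 2.18 FPKM, and their overexpression and control bounds overlapped.

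The 4 other members with a difference of at least 5 rose from different starting levels, and at each of them overexpression lay above control. A gene on chromosome 8 (10756035 to 10758336) read 42.3 FPKM with RNAi, 0.804 with overexpression (0.486 to 1.12) and 0.303 in control (0.124 to 0.482). A gene on chromosome 5 (37324377 to 37326512) read 44.5 FPKM with RNAi, 0.520 with overexpression and 0.385 in control. Both were under 1 FPKM without the RNAi construct. A gene on chromosome 4 (49557677 to 49558448) read 195 FPKM with RNAi, 5.97 with overexpression and 4.93 in control. A gene on chromosome 7 (43653872 to 43656379) read 181 FPKM with RNAi, 6.50 with overexpression (5.61 to 7.39) and 4.60 in control (3.92 to 5.29). At the genes on chromosomes 8 and 7 the overexpression and control bounds did not overlap, while at those on chromosomes 5 and 4 they did.

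The highest levels with RNAi came with rises of different size. The highest RNAi value was 955 FPKM (939 to 972), at a gene on chromosome 6 (9998468 to 10001762) that read 240 FPKM with overexpression and 190 FPKM in control, a log2 difference from control of 2.33. A gene on chromosome 16 (3730537 to 3733668) combined a high level with a steep rise, at 779 FPKM with RNAi, 65.5 with overexpression and 60.0 in control, a difference of 3.68. At the other end a gene on chromosome 1 (32659837 to 32662016) entered with 3.27 FPKM with RNAi (2.10 to 4.44), 0.0775 with overexpression and 0.0622 in control. A rise of 2 on this scale needs at least 3 FPKM with RNAi, whatever the control level.

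**Figure D2:**
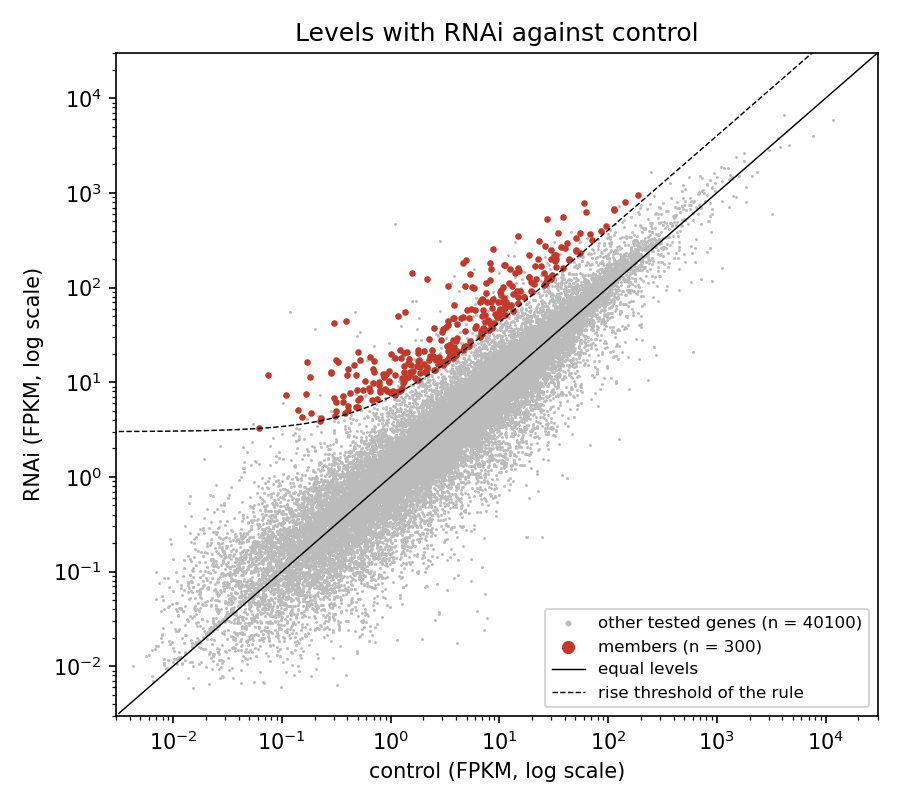
FPKM with RNAi (vertical axis) against control (horizontal axis), both on log scales, for 300 members in red and 40100 other tested genes in grey. The dashed line is the rise threshold, which flattens near 3 FPKM for genes that are low in control. Grey points above it are the 160 genes that rose as much but lay outside the overexpression window.

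The RNAi lower bound lay above the control upper bound for 299 members and above the overexpression upper bound for 299. It did so for 20.2% and 18.3% of all tested genes, but the rule, which asks for a large difference of the same pooled values, largely sets this separation among members. The exception to both was a gene on chromosome 6 (16634347 to 16639910), at 35.3 FPKM with RNAi (0 to 103), 11.96 with overexpression and 8.00 in control (0 to 39.6). Bounds taken as 2 SD of counting error gave members a median fragment number of 739 with RNAi, 67.8 with overexpression and 94.5 in control. Where single libraries could be resolved, 1 fragment in a library added 0.456 to 0.542 to this number. The number thus lies near the mean of the 2 libraries, not their total. The upper bound was a median of 7.36%, 24.3% and 20.6% above the value in the same order of groups. These bounds say nothing of differences from plant to plant.

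Where a gene had few fragments, the pooled values could be resolved into whole fragments in each of the 2 libraries of a group, whose order is unknown. This succeeded for 43 members with overexpression and for 38 in control, all low there (medians of 0.452 and 0.401 FPKM). The 2 overexpression libraries of a member differed by a median of 0.37 on the log2(FPKM + 1) scale and by at most 2.20. The 2 control libraries differed by a median of 0.24 and by at most 2.47. Both maxima were read at 1 short gene model on chromosome 8 (4306968 to 4307181), with 1 library at 0 FPKM in each group. Its locus spans 213 bp, and its pooled bounds ran from 0 to 5.56 with overexpression and 0 to 6.88 in control. Both maxima thus rest on very few fragments. Resolved non-members had lower medians, 0.19 with overexpression and 0.14 in control, but the levels of the 2 sets were not matched.

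The chromosome 5 gene named above read 0.716 and 0.324 FPKM in the 2 overexpression libraries and 0.271 and 0.499 FPKM in the 2 control libraries. These ranges overlap, and each value is far under the 44.5 FPKM of the RNAi column. Of 31 members resolved in both groups, the overexpression and control libraries overlapped in 25, overexpression was lower in both libraries in 4 and higher in both in 2. The rule's window favours such overlap, and the same counts over all tested genes were not made. These counts are therefore a description and say nothing particular to the members. The RNAi libraries could be resolved for 1 member, the same short gene model on chromosome 8 (4306968 to 4307181), at 27.9 and 28.9 FPKM (pooled bounds 11.2 to 45.6). It read 3.60 and 0 FPKM in the overexpression libraries and 4.55 and 0 FPKM in the control libraries. For the other 299 members the share of each RNAi library in the rise was not tested.

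Inside the window set by the rule, overexpression tended to lie slightly under control. Its median log2 difference from control was -0.10, and it was below control in 183 members (61.0%), against 47.3% of the 37253 tested genes inside the same window. The window holds 92.2% of tested genes and was used to choose the members. Overexpression and control bounds did not overlap for 75 members, in 53 with overexpression lower and in 22 with it higher. Over all tested genes 8.33% were lower and 9.86% higher in this sense. So the words "RNAi only" hold within the rule's 1.5-fold window on FPKM + 1, not within counting error for each gene. Adding 1 FPKM also shrinks overexpression differences of low genes, which in plain FPKM can exceed 1.5-fold either way. A member on chromosome 16 (22560473 to 22560999) read 0.555 FPKM with overexpression (bounds 0 to 1.16) and 0.0746 in control (0 to 0.284). Its libraries resolved to 5 and 2 fragments with overexpression and 0 and 1 in control. One on chromosome 3 (37519191 to 37521056) read 0.0164 (0 to 0.0650) and 0.283 FPKM (0.103 to 0.463) in that order. It resolved to 1 and 0 fragments with overexpression and 14 and 6 in control. Such low values rest on few fragments. Both comparisons share the control libraries.

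Of the 460 genes that rose by at least 2 with RNAi, 160 fell outside the window, 70 with overexpression above control and 90 below it. Genes on either side of a limit had nearly equal differences from control, at levels that could lie far apart. Just inside the rise threshold, a gene read 7.37 FPKM with RNAi, 0.595 with overexpression and 1.09 in control (a difference of 2.00 from control), and just outside it one read 467, 104 and 116 FPKM in the same order (1.997). Just inside the window, overexpression differed from control by -0.58 at a gene of 12.9 FPKM with RNAi, 1.06 with overexpression and 2.08 in control. Just outside it, the difference was -0.59 at a gene of 45.6 FPKM with RNAi, 5.87 with overexpression and 9.31 in control.

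The members were short loci. Their deposited loci spanned a median of 2157 bp, against 3724 bp over all tested genes and 3940 bp over the 22528 tested genes whose RNAi level reached that of the lowest member. Loci under 1500 bp made up 30.0% of members and 14.3% of tested genes, and loci of 6000 bp or more 6.67% and 23.9%. The same held for the 205 genes chosen by the mirror rule, a fall of at least 2 with RNAi inside the same window, whose median was 2085 bp. The mirror rule took 0.507% of tested genes. Whether span bears on these measurements was not tested.

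Members lay on each of the 20 chromosomes, unevenly. Chromosome 3 had the highest share, 25 of 1897 tested genes or 1.32%, followed by chromosome 1 with 20 of 1752 (1.14%), chromosome 13 with 30 of 2855 (1.05%) and chromosome 8 with 29 of 2794 (1.04%). Chromosome 20 had the lowest, 4 of 1780 or 0.225%, and chromosome 17 had 7 of 1999 (0.350%). The share over all chromosomes was 0.743%.

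**Figure D3:**
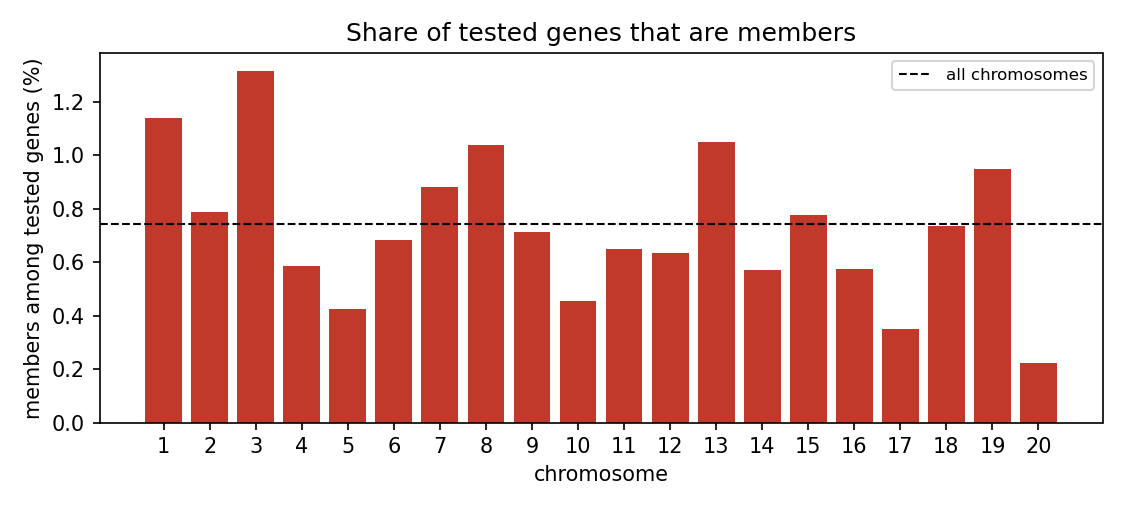
Members as a share of tested genes (vertical axis, %) on each of the 20 chromosomes (horizontal axis), with the share over all chromosomes, 0.743%, as a dashed line. Chromosome 3 stands highest at 1.32% and chromosome 20 lowest at 0.225%.

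A minority of members had another member beside them, a larger share than among non-members. In the order of tested genes along a chromosome, 29 of 300 members (9.67%) stood next to another member, against 563 of 40100 non-members (1.40%). They formed 12 runs, 8 of 2 genes, 3 of 3 genes and 1 of 4 genes, and the other 271 members stood alone. The 4 runs of at least 3 became 1 with columns scaled to equal sums, with at least 1 FPKM in all columns, with a rise of 3 or with a window of 0.3, and 2 without overlapping loci. For comparison, 8 of 205 genes of the mirror rule (3.90%) stood next to another of their own set, as did 6 of the 160 genes (3.75%) that rose outside the window, with 0 runs of at least 3 in either. Larger sets have more chances of neighbours, and these shares were not tested against each other. Copies of a gene that lie side by side can share fragments, and without sequences it was not tested whether the neighbours resemble each other.

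The longest run held 4 genes on chromosome 7 between 16580991 and 16596992, with gaps of 2737 to 3619 bp and no other gene model inside. The first gene (16580991 to 16582517) read 171 FPKM with RNAi (164 to 178), 8.90 with overexpression (7.27 to 10.5) and 11.1 in control (9.51 to 12.8). The second (16585254 to 16588337) read 111 FPKM with RNAi, 5.15 with overexpression and 7.58 in control. The next (16591956 to 16593033) read 98.4 FPKM with RNAi, 4.53 with overexpression and 5.79 in control. The last (16595864 to 16596992) read 219 FPKM with RNAi, 23.5 with overexpression and 18.8 in control. The 4 rises were alike, with log2 differences between 3.47 and 3.87, although overexpression lay below control at 3 genes and above it at the last.

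Beyond this run lay genes that moved less and a further member. Between 16580991 and 16663988 stood 10 tested genes, 5 of them members, and RNAi was higher than control by 1.18, 1.41 and 1.08 (log2) at 3 of the 5 others while the remaining ones differed by -0.34 and -0.14. The next gene (16597813 to 16599084) read 15.4 FPKM with RNAi, 6.42 with overexpression and 6.23 in control. Farther on, a gene at 16641128 to 16643278 read 1472 FPKM with RNAi, 613 with overexpression and 552 in control, and another member (16662590 to 16663988) read 395, 79.4 and 86.7 FPKM in that order. Between them, a gene at 16602759 to 16604754 stood at 46.4 FPKM with RNAi, 85.0 with overexpression and 58.9 in control, so its RNAi level was lower than control.

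On chromosome 3, 3 members between 37519191 and 37537874 had loci of like size, 1862 to 1938 bp, and gaps of 6534 and 6484 bp. The middle gene dominated, at 201 FPKM with RNAi (196 to 206), 33.0 with overexpression (30.9 to 35.1) and 29.6 in control (27.8 to 31.4). The first read 12.4 FPKM with RNAi, 0.0164 with overexpression and 0.283 in control. The last read 12.2 FPKM with RNAi, 1.10 with overexpression and 0.909 in control. The 2 outer genes thus reached nearly equal RNAi levels from control levels that differed, and the tested genes on either side of the run differed from control by 0.23 and 0.51 (log2).

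On chromosome 15, 3 members between 47946450 and 47997116 were spaced more widely, 19337 and 26057 bp apart. Inside this run lay 1 gene model that was not tested, and 1 of the members overlapped another model. The middle gene again dominated, at 670 FPKM with RNAi (657 to 683), 103 with overexpression (97.4 to 108) and 114 in control (109 to 119). The first read 7.98 FPKM with RNAi, 0.591 with overexpression and 0.645 in control, and the last 19.7, 3.81 and 3.97 FPKM in that order. Overexpression lay within 0.15 of control (log2) at each of the 3.

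On chromosome 13, 3 gene models lay between 23081905 and 23089044. The last (23087275 to 23089044) read 800 FPKM with RNAi (783 to 816), 132 with overexpression (126 to 137) and 144 in control (138 to 150). The other 2 carry the same deposited locus (23081905 to 23084554), so the split of fragments between them is uncertain. One read 260 FPKM with RNAi, 31.4 with overexpression and 40.2 in control, and the other 9.77, 0.949 and 1.30 FPKM in that order, with bounds that reach 0 in the last 2 groups.

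**Figure D4:**
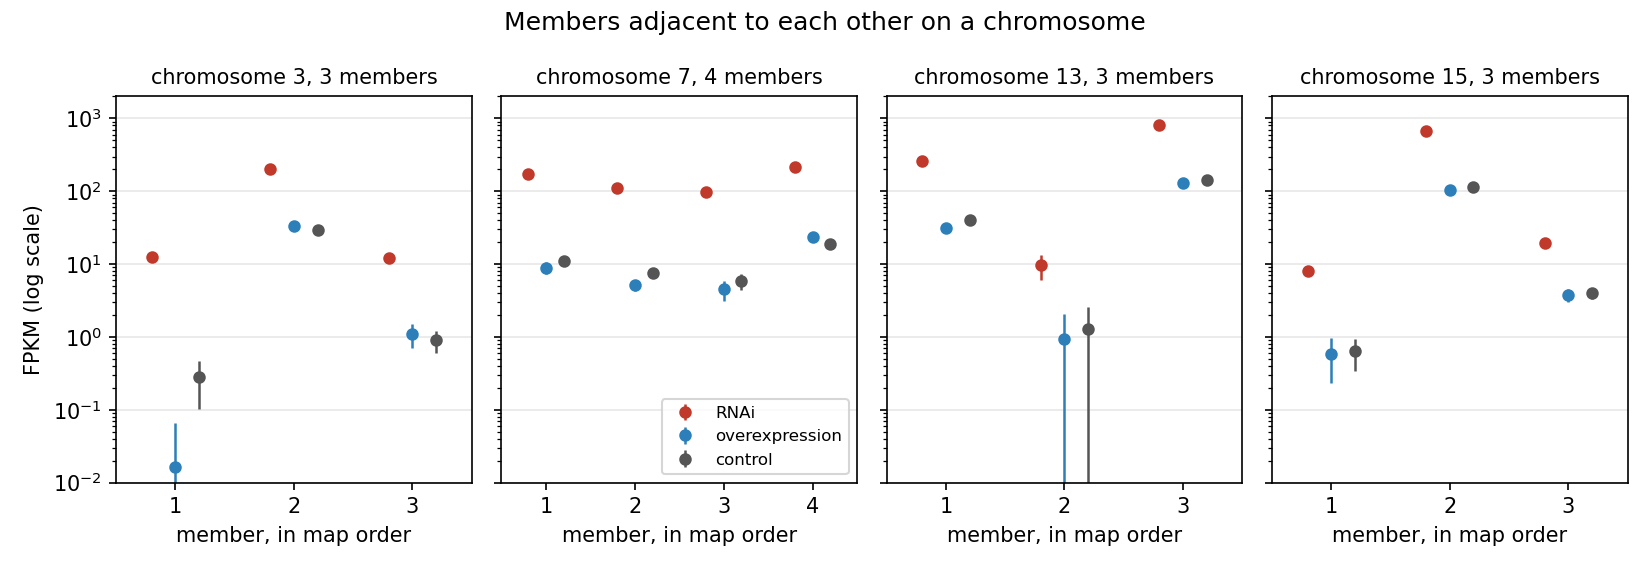
FPKM (vertical axis, log scale) of the members in the 4 runs of at least 3, a panel per run and members in map order, with the authors' bounds as bars. Bounds that reach 0 end at the foot of the axis. RNAi lies above overexpression and control at each of the 13 genes, by the rule, and levels within a run range widely, such as 7.98 to 670 FPKM with RNAi on chromosome 15.

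Of the 8 pairs, the largest median log2(FPKM + 1) difference, 3.92, was on chromosome 2 between 9891041 and 9917324. By the plain ratio of summed FPKM it stood at 17.5 times control, and another pair on chromosome 2 (44658494 to 44688689) at 30.9 times, at a summed 22.3 FPKM with RNAi, 0.703 with overexpression and 0.721 in control. Gene models that were not tested lay inside both pairs, 1 in the first and 3 in the other. At the pair from 9891041, the first gene read 138 FPKM with RNAi, 6.46 with overexpression and 5.34 in control, and the second 88.6, 8.83 and 7.57 FPKM in that order. On chromosome 4 a pair sat 126 bp apart between 2154938 and 2161481, where an abundant gene (277 FPKM with RNAi, 19.9 with overexpression and 26.4 in control) was followed by a low one (11.8, 0.597 and 0.478 FPKM). The pair on chromosome 1 between 34164971 and 34169382 held one of the highest members, at 666 FPKM with RNAi, 97.3 with overexpression and 113 in control. Its partner is a locus of 306 bp that read 104 FPKM with RNAi, 12.8 with overexpression and 13.1 in control. A pair on chromosome 19 with abutting loci, between 44575260 and 44577576, lay near the edge of the window, at -0.55 and -0.54 (log2) for overexpression against control. There, 3 of the 5 tested genes up to 44589512 were members, and the other 2 differed from control by 1.06 and 1.67 (log2) with RNAi.

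Joining members up to 100 kb apart gave 27 groups with 63 members in all, 20 of 2, 6 of 3 and 1 of 5. Some groups were broken by genes that did not move with their neighbours. On chromosome 1, 3 members between 56133401 and 56194868 stood among 6 other tested genes with a median difference of 0.20. The first of these members read 623 FPKM with RNAi, 49.3 with overexpression and 62.0 in control, and the gene beside it (56136670 to 56142966) 2.497, 1.68 and 1.75 FPKM in that order. On chromosome 9 a member at 535 FPKM with RNAi, 32.8 with overexpression and 27.6 in control (351119 to 354290) shared 78.7 kb with 2 members under 10 FPKM with RNAi.

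Genes next to a member that were not members themselves leaned the same way, weakly. The 563 such genes had a median log2 difference of RNAi from control of 0.12 (quartiles -0.15 and 0.46), against 0.03 over all tested genes. Of them 55 (9.77%) were higher by at least 1 and 18 (3.20%) lower by as much, against 4.67% and 4.68% of all tested genes. Their median difference of overexpression from control was 0.02, against 0.01 over all tested genes. Counted outward, 5.99% of non-members were higher by at least 1 at 2 places from a member, 5.46% at 3 places and 4.41% at 4 places. Another member held 5.67% of the positions at 1 place, 2.67% at 2, 2.33% at 3, 1.67% at 4, 0.667% at 5 and at 6, 1.67% at 7, 2.00% at 8, and 1.00% at 9 and at 10 places, against 0.743% of tested genes. The share was thus highest at 1 place. From 5 places on it rested on 4 to 12 of 600 positions, with each pair of members counted from both sides. It lay under the background at 5 and 6 places and above it farther out, and such small counts cannot show where it settles.

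**Figure D5:**
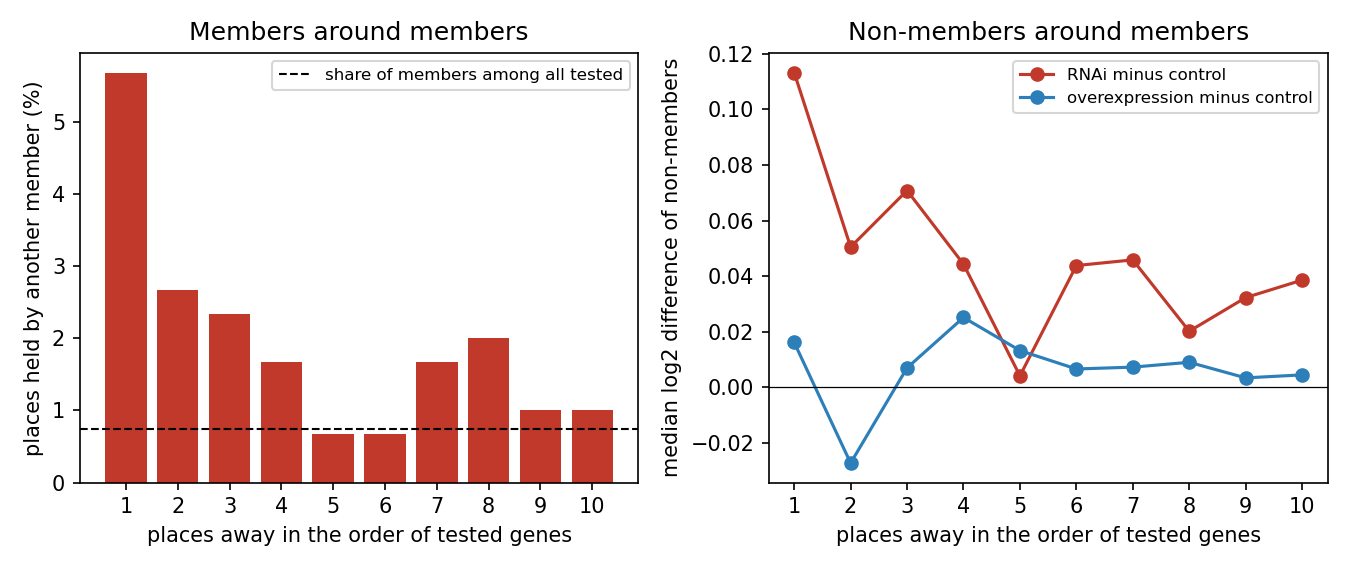
Left, share of places (vertical axis, %) held by another member at 1 to 10 places from a member in the order of tested genes (horizontal axis), with 0.743% dashed; right, median log2 difference of non-members at the same places, counted once for each member they neighbour. The share is 5.67% at 1 place, 0.667% at 5 and 6 places and 2.00% at 8 places, and the RNAi median is highest at 1 place, 0.11.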

How the data were processed

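Soybean hairy roots in 3 groups of 2 RNA-seq libraries were measured. The authors deposited FPKM values with bounds and a flag, 1 per gene model and group, so libraries had been pooled, per the file headers. Reads were aligned with TopHat, per the submitters' processing notes; version, quantification tool and confidence level are not given in the sources. The column G6 was read as GmPHD6 overexpression, the other columns being named for RNAi and K599.

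Of 56044 gene models, 110 lacked an OK flag in a column and 15534 more were listed at 0 in one, which left 40400, none of them on a scaffold. Differences are log2(FPKM + 1) of a construct minus control. Runs are members adjacent in the order of tested genes. Overlap means deposited loci that share a position. No test was run: each group has 1 pooled value, single libraries were resolved for few members, and the rule used both contrasts. The members and lists were chosen with earlier results of these data known. The planned gene lists and promoter motifs were not used, because 0 IDs matched a name. By rule, the 2 members with the largest difference and at least 5 FPKM with RNAi are named, and runs are given by position; other positions were chosen after their values were seen.

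Fragment numbers were computed from the upper bounds, taken as 2 SD of counting error, and lie near the mean of the 2 libraries. Values with a number under 40 were resolved into whole fragments in 2 libraries. This was accepted where the sum fitted within rounding error and a random value would match in under 5% of cases. Resolved were 43.1% (RNAi), 43.7% (overexpression) and 43.5% (control) of the values under 40, and 0.261%, 0.176% and 0.113% after a shift. Python 3.11.15, pandas 2.3.3 and numpy 2.4.6 were used, and the steps were tested on simulated data.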

Additional observations from a re-analysis of the deposited data

How the results depend on the processing

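The rule gave 300 members, 29 with a member beside them and 4 runs of at least 3. A pseudocount of 0.1 or 0.5 FPKM gave 407 and 348 members, of which 231 and 271 were among the 300, and quantile normalization gave 267, of which 265 were. Scaling each column to a sum of 1000000 moved the median difference of overexpression from control over all tested genes to -0.21, against 0.01 as deposited. It gave 222 members, of which 196 were among the 300, and 1 run of at least 3. At least 1 FPKM in all columns, which tests fewer genes, left 223 members and 1 such run, and leaving out overlapping loci 2 such runs. A rise of 1.5 gave 618 members, 73 with a member beside them. A rise of 3 left 84 members, 10 with a member beside them and 1 run, and a window of 0.3 left 165, 17 and 1. The share of members beside a member stayed between 8.68% and 11.9% under the settings named so far, whose sets ran from 84 to 618 members. The order of all gene models gave 24 of the 300 members beside a member, a share below that range, and 3 runs. The median difference of neighbours, 0.12, was 0.0498 at 2 places and 0.16 with 0.1 FPKM added. The cause of these moves was not tested beyond what each setting alters by construction. The 2 named genes kept differences between 5.14 and 6.41. No paired analysis was possible because each group is 1 pooled column, and for the same reason no replicate could be left out. Without library values for most members, depth limits only what the bounds show, and the spread between plants is unknown.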

Other observations

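A further 69 gene models with OK flags rose by at least 2 with RNAi but were listed at 0 in overexpression, in control or in both, so the rule could not take them. Listed at 0 in both were 36, with RNAi levels of 3.01 to 43.5 FPKM and a median of 6.98. Another 24 were listed at 0 in control alone, with 3.32 to 74.2 FPKM with RNAi, and 9 with overexpression alone, with 3.48 to 90.7 FPKM. Inside the overexpression window lay 41 of the 69, and 4 of these stood next to a member. The highest of the 41 was a locus of chromosome 5 (37328393 to 37328561) at 43.5 FPKM with RNAi, but its bounds ran from 0 to 93.8. A locus on chromosome 11 (34413582 to 34414431) was better supported, at 27.6 FPKM with RNAi (24.4 to 30.8), listed at 0 with overexpression and at 0.281 in control (0 to 0.583). An exact 0 can be a failed estimate, so no fold is given for these genes.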
